A study of Homo sapiens with 6 samples.

Results

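The human cell line SH-SY5Y was derived from a neuroblastoma, has features of dopamine-producing cells and was used here as wild type. RNA sequencing was performed on 3 libraries from cells given 2 mM methamphetamine (METH), a psychostimulant, for 24 h, and on 3 libraries from cells given PBS for the same time. Of the 4101 genes in the deposited table, 110 are protein-coding genes whose symbol is ZNF and a number, with or without a final letter, and the values of these 110 genes are described below. A further 5 genes with a matching symbol (ZNF788, ZNF815P, ZNF826P, ZNF876P and ZNF887P) are annotated as pseudogenes and were left out, and antisense genes were not taken. The annotation used holds 509 such coding genes, so 21.6% of them were measured in this table and the others were not analysed here.

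The table holds only genes whose unadjusted p-value for METH against PBS, in its own column, is under 0.1, so its genes had been selected on the contrast described here. Values are CPM, the reads of a gene scaled to 1 M reads of its library, without correction for gene length. The library denominators were 110.77, 86.8 and 93.1 M reads for the columns PBS 10, PBS 11 and PBS 12 and 85.7, 90.9 and 107 M for METH 1, METH 2 and METH 3, and values of a gene are given in this order. The labels number the PBS samples otherwise than the columns, and they do not say whether the 3 samples of a group were separate cultures, so the p-values measure the spread between these samples, which may be technical. At these depths, 109 of the 110 genes had at least 10 reads in every library, and the mean of a gene over the 6 libraries lay between 0.206 and 118 CPM with a median of 3.97 CPM. In 55 of the 110 genes an exon overlaps another annotated gene, and since the use of strand in counting is not given in the sources used here, reads of the overlapping genes cannot be told apart there.

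Numbered ZNF genes encode mainly proteins with tandem zinc fingers of the C2H2 type, in which a pair of cysteines and a pair of histidines hold a zinc ion and the finger reads a few bases of DNA. Many of them carry a KRAB box ahead of the fingers, which recruits the co-repressor KAP1 (TRIM28) and, through it, enzymes that methylate histone H3 and DNA, and many of these KRAB zinc finger proteins bind and silence transposable elements. Such genes arose by repeated duplication and stand in clusters, most of all on chromosome 19. Members without a KRAB box include activators of promoters, RNA-binding proteins and proteins that carry the name without a finger of this type.

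More of these genes were lower than higher in the METH-treatment group. The change of a gene is given as log2FC, the difference between the group means of log2(CPM + 0.1), METH minus PBS, and was tested with limma with Benjamini-Hochberg adjustment over the 4101 genes at a threshold of 0.1. By this test 16 of the 110 genes rose and 49 fell, while 45 did not pass the threshold, of which 22 had a log2FC under 0. Of all genes of the table, 69.1% passed, 33.3% as higher and 35.8% as lower with METH, against 14.55% and 44.55% of the 110 ZNF genes. In such bulk samples a change in the number of cells of a kind and a change in RNA per cell cannot be told apart. The log2FC was negative in 71 of the 110 genes and in 2035 of the 4101 genes of the table, and its median was -0.55 for the ZNF genes and 0.11 for the table. The 3 METH values lay all above the 3 PBS values in 20 ZNF genes and all below them in 46, whereas 31% and 33% of the genes of the table were separated in these directions, 64% in all. On recovered reads, edgeR called 16 ZNF genes higher and 49 lower, beside 30.4% and 36.1% of the table, and DESeq2 called 19 higher and 51 lower, beside 32.7% and 37.4%.

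The size of the effect was moderate in most genes. The mean CPM differed by at least 2-fold in 2 of the 16 genes that rose and in 29 of the 49 that fell. Leaving out any 1 library kept the call in 3 of the 16 and in 11 of the 49. The counts themselves moved with the libraries: 5 rose and 17 fell without METH 1, 4 rose and 16 fell without METH 2, 14 rose and 30 fell without PBS 10, and 6 rose and 30 fell without PBS 12. In the same fits 491, 412, 1015 and 747 of the 4101 genes rose (12%, 10%, 24.8% and 18.2%) and 628, 563, 1233 and 854 fell (15.3%, 13.7%, 30.1% and 20.8%). Of the 110 genes, 15.5%, 14.5%, 27.3% and 27.3% fell in these fits. Without METH 1, METH 2 or PBS 10 the share that fell was thus near or below that of the table. Without METH 3 and PBS 11, 37.3% and 47.3% of the 110 genes fell, beside 27.9% and 33.4% of the table. The median log2FC of the 110 genes stayed between -0.57 and -0.40 over the 6 leave-one-out fits. Adjusted over 15724 genes, the number that the p-values of the deposited table imply, ZNF226 alone rose and 6 genes fell (ZNF367, ZNF714, ZNF100, ZNF85, ZNF572 and ZNF783), beside 7.71% and 7.49% of the table.

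**Figure D1:**
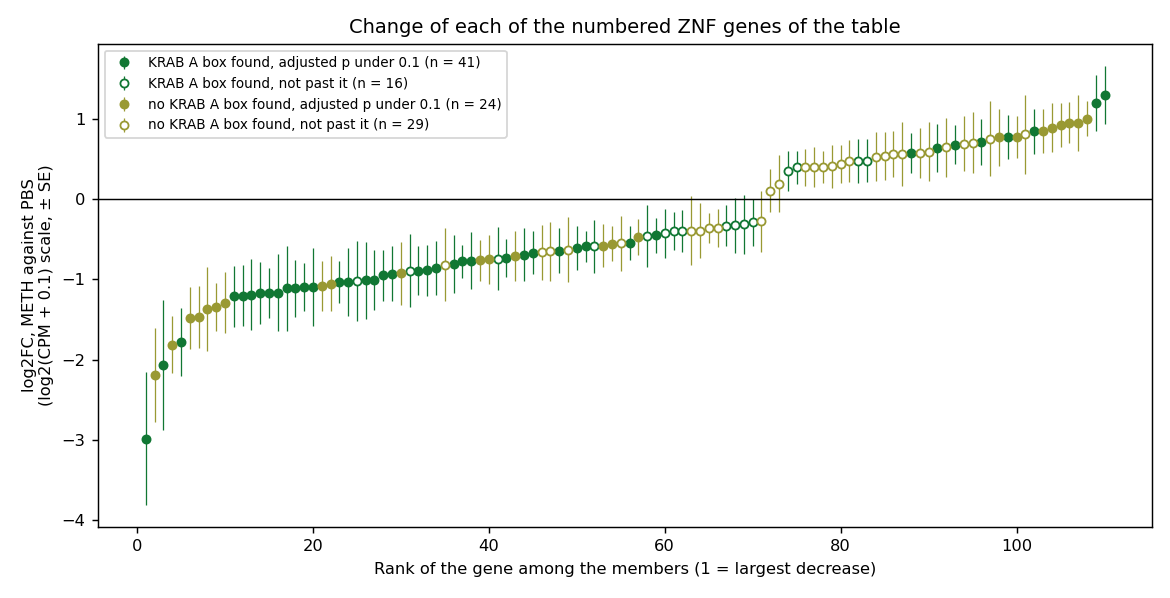
Change of each of the 110 numbered ZNF genes, ordered by log2FC (vertical axis, METH against PBS on the log2(CPM + 0.1) scale, with SE). Green points have a KRAB A box by the fixed pattern and olive points have none by it. The olive points include 14 genes in which a sequence profile, described below, found a box. Filled points passed an adjusted p of 0.1 by limma. Below 0 lie 71 of the points, and the green points are denser there (45 of 57) than the olive ones (26 of 53).

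Genes with a KRAB box made up the larger part of the 110 genes and of the decreases. A KRAB A box was found by a fixed sequence pattern in the encoded protein of 57 of the 110 genes, and of these 8 rose and 33 fell, with a median log2FC of -0.73. Of the 53 genes without the pattern 8 rose and 16 fell, with a median of 0.11. Negative log2FC values were found in 45 of the 57 and in 26 of the 53. The difference depended on how the box was found. A profile built from the matches and searched in every isoform, an alternative chosen after seeing the data, added 14 genes, of which 4 rose (ZNF133, ZNF226, ZNF227 and ZNF394) and 1 fell (ZNF257), with a median of 0.46. With these, 71 KRAB genes had a median of -0.60 with 12 higher and 34 lower, and the 39 genes without a box by either way had a median of -0.36 with 4 higher and 15 lower. The share that fell was 57.9% with and 30.2% without a box under the pattern, and 47.9% and 38.5% under the profile. The share that rose was 14% with and 15.1% without a box under the pattern, and 16.9% and 10.3% under the profile. Of all genes of the table, 35.8% fell and 33.3% rose. No test was made between the classes.

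**Figure D2:**
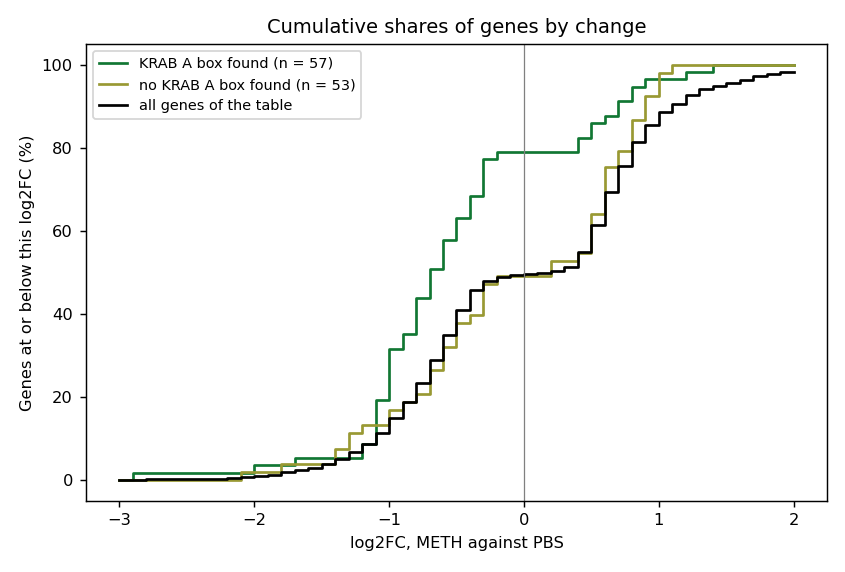
Share of genes (vertical axis, percent) at or below each log2FC (horizontal axis) for the 57 genes with a KRAB A box by the fixed pattern, the 53 without it and all 4101 genes of the table. The KRAB curve lies to the left, with a median of -0.73, and the other curves cross 50% near 0 (0.11 and 0.11). The curve without the pattern includes 14 genes in which the profile found a box, with a median of 0.46. The 39 genes without a box by either way had a median of -0.36.

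In each class of finger number more genes fell than rose. With 13 or more fingers 5 genes rose and 12 fell of 28, with 7 to 12 fingers 7 rose and 25 fell of 56, and with 1 to 6 fingers 2 rose and 9 fell of 20. In these 3 classes 42.9%, 44.6% and 45% fell, near the 44.55% of all 110 genes and beside 35.8% of the table. The shares that rose were 17.9%, 12.5% and 10%, beside 14.55% of the 110 genes and 33.3% of the table. No finger of the searched type was found in 6 genes, among which ZNF365 and ZNF185 rose, ZNF703, ZNF839 and ZNF738 fell, and ZNF330 did not pass the threshold. ZNF738 encodes the shortest protein of the set, of 137 residues with a KRAB box and no finger, and it fell with a call (log2FC -0.54 ± 0.22 SE, limma adjusted p = 0.0672) that held in 2 of 6 leave-one-out fits. The gene with the most fingers, ZNF850 with 29, had 2.12, 4.33 and 0.816 CPM with PBS and 0.735, 1.18 and 0.738 CPM with METH. Its groups overlapped, PBS 11 was its highest library, and its call (log2FC -1.11 ± 0.53 SE, limma adjusted p = 0.0948) held in 1 of the 6 leave-one-out fits.

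Low values went with decreases, in the ZNF genes and in the table alike. All 10 ZNF genes with a mean under 1 CPM and 40 of the 50 with a mean of 1 to 5 CPM had a negative log2FC, against 18 of the 40 at 5 to 20 CPM and 3 of the 10 at 20 CPM or more. The same shares over the whole table were 64.3%, 62.3%, 49.6% and 33.8%. In the bin from 1 to 5 CPM, 56% of the ZNF genes and 42.9% of all genes fell, and in the bin from 5 to 20 CPM 30% and 35.3% did. The part of expression level in the count of decreases was not tested.

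Among the 16 genes that rose, the 10 with the largest log2FC, a mean that reached 1 CPM in either group and no overlap between the groups were ZNF846, ZNF433, ZNF226, ZNF394, ZNF365, ZNF513, ZNF227, ZNF34, ZNF704 and ZNF582. ZNF226, with 17 fingers and a KRAB box by the profile (chr19:44165073-44178381), had 24.1, 33.6 and 22.1 CPM with PBS and 58.9, 51.5 and 47.9 CPM with METH. All METH libraries were higher than all PBS libraries, by 1.98-fold in the means (log2FC 1.00 ± 0.22 SE, limma adjusted p = 0.0168), and the call held without each library in turn. Its neighbour ZNF227 (chr19:44207547-44237268), whose exons overlap ZNF235 on the other strand, had 12.8, 8.05 and 6.41 CPM with PBS and 17.5, 15.6 and 14.4 CPM with METH. The groups did not overlap (log2FC 0.85 ± 0.28 SE, limma adjusted p = 0.04197), with PBS 10 closest to the METH libraries, and the call held in 3 of 6 leave-one-out fits.

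ZNF846 (chr19:9751993-9793180) had the highest log2FC of the 110 genes. It had 1.66, 3.67 and 3.09 CPM with PBS and 7.202, 8.93 and 4.71 CPM with METH, a 2.47-fold difference (log2FC 1.30 ± 0.36 SE, limma adjusted p = 0.0292). METH 3 was the lowest METH library and PBS 11 the highest PBS library, and they did not overlap. ZNF433 (chr19:12014732-12035741), a KRAB gene with 18 fingers, had 2.82, 5.02 and 1.91 CPM with PBS and 7.73, 6.703 and 6.75 CPM with METH, with the METH libraries close together and all above PBS (log2FC 1.20 ± 0.34 SE, limma adjusted p = 0.0313). An exon of ZNF433 overlaps AC008770.1, which also rose (log2FC 1.19 ± 0.21 SE, limma adjusted p = 0.00932), so the reads of the 2 genes may not be separate. ZNF394 (chr7:99486519-99500324), the only one of the 110 with a SCAN domain, through which such proteins pair, had 12.96, 20.4 and 15.4 CPM with PBS and 39.6, 30.5 and 24.6 CPM with METH. It was separated in all libraries (log2FC 0.95 ± 0.26 SE, limma adjusted p = 0.0273), and its call held without each library in turn. ZNF789, which overlaps ZNF394 on the other strand, did not pass the threshold and lay lower with METH (log2FC -0.40 ± 0.24 SE, limma adjusted p = 0.146).

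Members with other known roles rose as well. ZNF365, which has no C2H2 finger here and whose protein is known to bind DISC1 and to act in genome stability, had 1.12, 0.979 and 0.902 CPM with PBS and 2.07, 1.76 and 2.15 CPM with METH. Its level was low but the libraries of each group were close together, and the groups were apart by 1.99-fold (log2FC 0.93 ± 0.28 SE, limma adjusted p = 0.0343). ZNF513, a gene of retinal development, was one of the most abundant of the 110 genes, with 33.5, 73.7 and 59.1 CPM with PBS and 120, 96.4 and 80.5 CPM with METH. PBS 10 was far below the other PBS libraries, and the groups did not overlap (log2FC 0.89 ± 0.30 SE, limma adjusted p = 0.0474). An exon of ZNF513 overlaps SNX17 on the other strand, so the reads of these genes may not be separate. ZNF704, a paralog of ZNF395, had 24.2, 17.8 and 14.2 CPM with PBS and 26.4, 29.04 and 40.4 CPM with METH, with METH 3 highest (log2FC 0.78 ± 0.26 SE, limma adjusted p = 0.0459). ZNF34 and ZNF582, both KRAB genes, had log2FC 0.85 and 0.77 with adjusted p of 0.0434 and 0.0537 by limma, without overlap of the groups. The remaining 6 genes that rose were ZNF133, ZNF185, ZNF460, ZNF669, ZNF383 and ZNF337, with log2FC from 0.57 to 0.95. ZNF185 encodes an actin-associated LIM domain protein and is a zinc finger gene of another type.

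**Figure D3:**
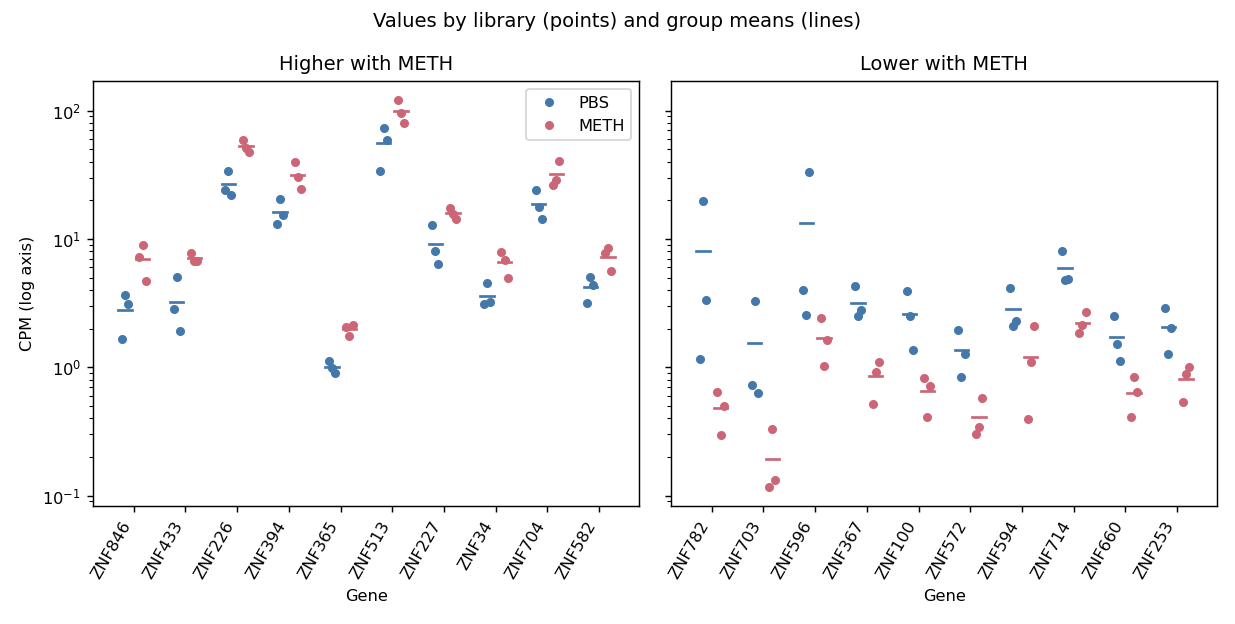
CPM in each library (points, log axis) and group means (lines) of the 10 genes with the largest rise and the 10 with the largest fall among those whose mean reached 1 CPM in either group, with no overlap between the groups. ZNF782, ZNF703 and ZNF596 each have 1 PBS library far above the rest, whereas the libraries of each group lie close together in ZNF365.

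By the same limits on level and overlap, the 10 genes with the largest decreases were ZNF782, ZNF703, ZNF596, ZNF367, ZNF100, ZNF572, ZNF594, ZNF714, ZNF660 and ZNF253. The first 3 rested on single PBS libraries for their size. ZNF782 (chr9:96816472-96875623) had 1.17, 19.8 and 3.34 CPM with PBS and 0.642, 0.297 and 0.495 CPM with METH. PBS 11 was far above the other libraries, and the decrease (log2FC -2.98 ± 0.83 SE, limma adjusted p = 0.0292) was smallest without it, at a log2FC of -1.90. ZNF703, a co-repressor of the NLZ family known from luminal breast cancer, had 0.731, 3.26 and 0.633 CPM with PBS and 0.117, 0.33 and 0.131 CPM with METH. Again PBS 11 was the highest, the groups did not overlap, and the decrease (log2FC -2.19 ± 0.59 SE, limma adjusted p = 0.0273) was smallest without it too, at a log2FC of -1.49. ZNF596 had 3.999, 2.55 and 33.2 CPM with PBS and 2.42, 1.02 and 1.63 CPM with METH. PBS 12 made most of the PBS mean, METH 1 lay just under PBS 11, and the call (log2FC -2.07 ± 0.81 SE, limma adjusted p = 0.0651) held in 3 of 6 leave-one-out fits.

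Smaller but steadier decreases were seen in ZNF367, ZNF100, ZNF714 and ZNF572. ZNF367 (chr9:96385941-96418329), which has 2 fingers and no KRAB box and had the smallest p of the 110 genes, had 4.28, 2.49 and 2.79 CPM with PBS and 0.514, 0.925 and 1.103 CPM with METH. All METH libraries were below all PBS libraries, by 3.76-fold in the means (log2FC -1.81 ± 0.36 SE, limma adjusted p = 0.0124), and the adjusted p over 15724 genes was 0.0474. ZNF572 had 1.94, 0.841 and 1.28 CPM with PBS and 0.303, 0.341 and 0.58 CPM with METH, separated in all libraries at low levels (log2FC -1.48 ± 0.39 SE, limma adjusted p = 0.0258). ZNF594, with 21 fingers, had 4.15, 2.11 and 2.29 CPM with PBS and 0.397, 1.101 and 2.09 CPM with METH, where METH 3 all but reached PBS 11 and the call (log2FC -1.37 ± 0.52 SE, limma adjusted p = 0.0619) held in 2 of 6 leave-one-out fits. ZNF660, whose exons overlap ZKSCAN7 and ZNF197, did not overlap between the groups (log2FC -1.29 ± 0.38 SE, limma adjusted p = 0.0347). ZNF488, known for a part in oligodendrocyte differentiation, lay under 1 CPM in the means of both groups and was chosen after its values were seen. It had 0.867, 0.449 and 1.06 CPM with PBS and 0.28, 0.209 and 0.15 CPM with METH, and its decrease (log2FC -1.47 ± 0.39 SE, limma adjusted p = 0.0269) held without each library in turn.

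Chromosome 19 holds 45 of the 110 genes, and 15 neighbours among them were all lower with METH. Of the 45 genes 7 rose and 21 fell (15.56% and 46.67%), and of the 65 genes on other chromosomes 9 rose and 28 fell (13.85% and 43.08%). When genes less than 1 Mb apart were joined into runs, 15 of the 45 formed a run of 4.08 Mb around ZNF43 (chr19:19865886-23945159), which holds 33 coding ZNF genes in all. All 15 had a negative log2FC, 12 fell and none rose by limma, with a median of -1.03 and a range from -1.77 to -0.33. In the other 30 genes of chromosome 19, 7 rose and 9 fell, and the median was 0.44. The genes of the run were also less abundant, with a median level of 1.64 CPM against 4.98 CPM in these 30, and low values went with decreases. The part of level in this difference was not tested. The run was singled out after the values were seen, so no test was made of it. The number that fell in the run was 6 without METH 2, 7 without METH 1, 8 without PBS 10 or PBS 12, 11 without METH 3 and 14 without PBS 11, and all 15 values stayed negative in each of these fits. Of the 4101 genes, 13.7%, 15.3%, 30.1%, 20.8%, 27.9% and 33.4% fell without METH 2, METH 1, PBS 10, PBS 12, METH 3 and PBS 11.

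**Figure D4:**
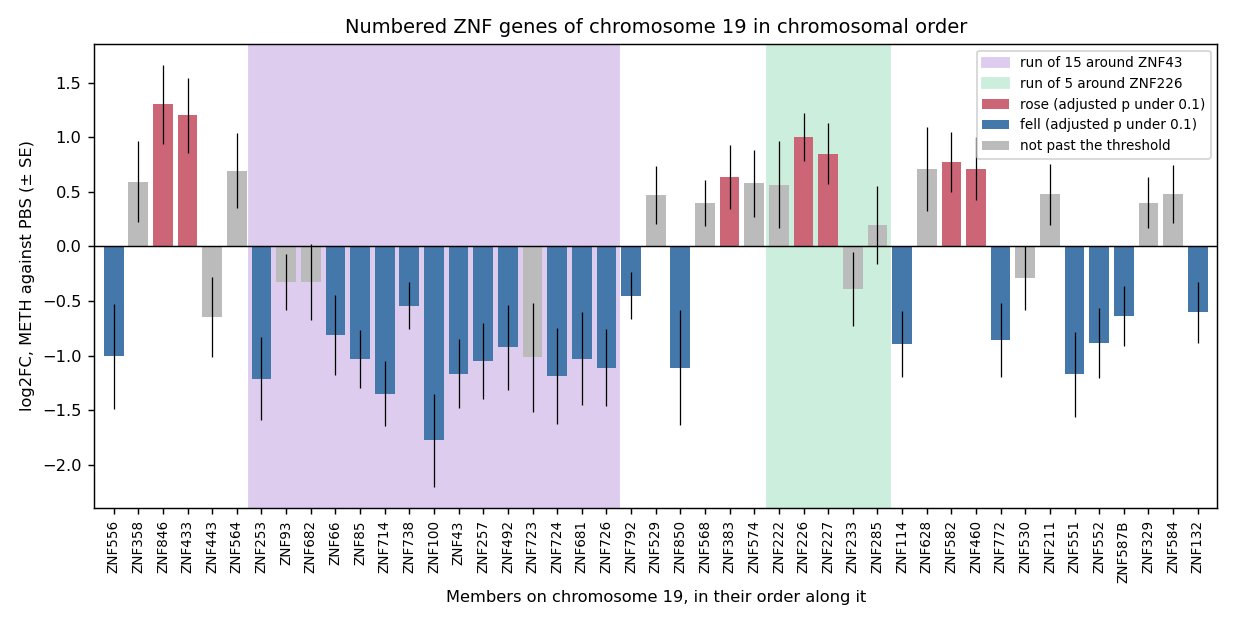
log2FC with SE (vertical axis) of the 45 numbered ZNF genes of chromosome 19 in their order along it. All 15 genes of the run around ZNF43 (violet) are below 0, 12 of them past the threshold (blue), while 4 of the 5 genes of the run around ZNF226 (green) are above 0, 2 of them past it (red).

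Within the run around ZNF43, both the levels and the log2FC values varied from gene to gene. ZNF100 had 3.93, 2.52 and 1.36 CPM with PBS and 0.829, 0.407 and 0.72 CPM with METH, the widest fold of the run at 3.99-fold (log2FC -1.77 ± 0.42 SE, limma adjusted p = 0.02097), with PBS 12 the lowest PBS library. ZNF714 had 8.08, 4.77 and 4.85 CPM with PBS and 1.84, 2.12 and 2.67 CPM with METH, a 2.67-fold difference with the METH libraries close together (log2FC -1.35 ± 0.30 SE, limma adjusted p = 0.0175). ZNF43 itself, with 19 fingers, had 6.61, 4.16 and 4.02 CPM with PBS and 1.55, 2.19 and 2.65 CPM with METH. All 3 of these genes had their highest value in PBS 10, none overlapped between the groups, and the calls held without each library in turn (for ZNF43, log2FC -1.17 ± 0.31 SE, limma adjusted p = 0.0274).

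ZNF85, the most abundant of these per kilobase after ZNF738, with means over all libraries of 1.16 and 2.82 CPM per kb of exon, had 8.18, 7.03 and 6.603 CPM with PBS and 2.603, 4.08 and 3.99 CPM with METH. All METH libraries were below all PBS libraries (log2FC -1.03 ± 0.26 SE, limma adjusted p = 0.0243). ZNF726 had 3.16, 4.42 and 5.14 CPM with PBS and 2.65, 1.16 and 2.13 CPM with METH, and here PBS 12 and not PBS 10 was highest (log2FC -1.11 ± 0.35 SE, limma adjusted p = 0.0403). ZNF253 had 2.89, 1.27 and 2.01 CPM with PBS and 0.537, 0.892 and 1 CPM with METH, also without overlap (log2FC -1.21 ± 0.38 SE, limma adjusted p = 0.0388). The other 6 genes that fell were ZNF66, ZNF738, ZNF257, ZNF492, ZNF724 and ZNF681, with log2FC between -1.19 and -0.54, of which ZNF66 overlapped between the groups. ZNF93, known to silence L1 retrotransposons, ZNF682 and ZNF723 did not pass the threshold. ZNF93 had 6.78, 4.45 and 6.51 CPM with PBS and 5.03, 4.38 and 4.44 CPM with METH, with METH 1 above PBS 11 (log2FC -0.33 ± 0.26 SE, limma adjusted p = 0.243). ZNF723 was near the detection limit, with 2 reads in METH 2.

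Summed over the 15 genes, the run gave 65.6, 47.6 and 53.5 CPM in PBS 10, PBS 11 and PBS 12 and 30.6, 28.2 and 31.1 CPM in METH 1, METH 2 and METH 3. The METH sums were close to each other and all below the PBS sums, with a ratio of means of 0.54. Apart from the pseudogene ZNF826P, the 6 other genes of the table within the span, LINC01224 and 5 genes known only by clone names, all fell. ZNF826P, left out of the 110, fell as well (log2FC -0.76 ± 0.30 SE, limma adjusted p = 0.0681). AC092329.3, one of the genes with clone names, overlaps an exon of ZNF724. LINC01224, a long noncoding RNA, had a mean of 9.14 CPM with PBS and 3.10 CPM with METH (log2FC -1.53 ± 0.30 SE, limma adjusted p = 0.0124). Identity of the proteins of the run to their closest paralog had a median of 71.8% and ran from 16.8% for the short ZNF738 to 90.9% for ZNF492, whose closest paralog is ZNF98. How the counting treated reads that match several genes is not given in the sources used here, so the values of single genes of the run are uncertain to that extent. Over the 110 genes, 4 have a paralog of more than 80% identity (ZNF100, ZNF492, ZNF443 and ZNF33B).

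The promoters of these neighbours share several words and are shown because they are the part of the genes next to the start of transcription. Promoter sequences of 300 bases, 250 before and 50 after the start, were taken from RefSeq (GRCh38.p14) and matched 89 of the 110 genes by symbol, 13 of them in the run. Capitals mark CCAATCAG, CTTCCGG (the ETS motif CCGGAAG on the other strand) and TTTGTCTC in the stretch from 65 bases before to 35 after the start, 5′ to 3′ on the strand of the gene. The stretches of ZNF100, ZNF714, ZNF43, ZNF85, ZNF726, which fell, of ZNF93, which did not pass the threshold, and of ZNF226, which lies outside the run, rose and has its ETS motif outside the stretch, were:
ZNF100: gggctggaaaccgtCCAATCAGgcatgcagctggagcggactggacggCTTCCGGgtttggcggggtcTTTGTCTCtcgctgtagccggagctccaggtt
ZNF714: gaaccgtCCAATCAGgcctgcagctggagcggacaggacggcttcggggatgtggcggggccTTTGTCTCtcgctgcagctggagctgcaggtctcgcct
ZNF43: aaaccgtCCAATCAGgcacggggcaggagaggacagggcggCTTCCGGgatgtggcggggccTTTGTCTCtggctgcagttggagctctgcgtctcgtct
ZNF85: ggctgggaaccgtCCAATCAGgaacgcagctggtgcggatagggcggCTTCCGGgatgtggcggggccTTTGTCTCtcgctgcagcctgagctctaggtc
ZNF726: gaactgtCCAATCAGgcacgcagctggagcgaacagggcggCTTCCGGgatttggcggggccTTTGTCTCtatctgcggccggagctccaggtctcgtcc
ZNF93: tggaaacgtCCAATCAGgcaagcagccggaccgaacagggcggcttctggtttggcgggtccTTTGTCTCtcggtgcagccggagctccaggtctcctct
ZNF226: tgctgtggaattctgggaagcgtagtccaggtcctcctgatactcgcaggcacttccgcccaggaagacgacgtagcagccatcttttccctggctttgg
They lie at chr19:21767545-21767644 (- strand), chr19:21082138-21082237 (+ strand), chr19:21836148-21836247 (- strand), chr19:20923186-20923285 (+ strand), chr19:23914821-23914920 (+ strand), chr19:19900881-19900980 (+ strand) and chr19:44165035-44165134 (+ strand).

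The ETS motif CCGGAAG, searched on both strands, was present in 10 of the 13 promoters of the run and in 31 of the 76 other ZNF promoters, and in 15.3% of the promoters of the table and 10.7% of all 27305. CCAATCAG and TTTGTCTC were the words of 8 letters found in most promoters of the run and were chosen after the sequences were read. CCAATCAG was in 13 of 13 promoters of the run, in 16 of the 76 others and in 4.16% of all promoters. TTTGTCTC was in 12 of the 13, in 10 of the 76 and in 1.61% of all. None of the 3 words overlaps another in the stretches shown. ZNF714, with the third smallest p of the 110 genes, and ZNF93, which did not pass the threshold, both lack the ETS motif and hold the other 2 words. Outside the run 5 rose and 11 fell of the 31 genes with CCGGAAG, and 8 rose and 15 fell of the 45 without it, with median log2FC of -0.31 and -0.39. Of the 16 with CCAATCAG 3 rose and 6 fell, with a median of -0.62 against -0.28 for the 60 without it. The 10 genes outside the run with TTTGTCTC had 1 rise (ZNF669) and 4 falls, with a median log2FC of -0.70 against -0.28 for the 66 without it. Of these 10, ZNF680, ZNF107, ZNF92 and ZNF736 are neighbours on chromosome 7. These matches are descriptions of the sequence only.

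Of the other motifs searched in the 89 promoters, GGGCGG (SP factors) was in 55, or 61.8%, against 70.2% in the table and 44.6% of all promoters. TGACGTCA (CRE) and TGACTCA (AP-1) were each in 4, or 4.49%, against 3.84% and 2.67% in the table and 1.98% and 4.92% of all promoters. None of the 13 promoters of genes that rose held either. Of the 36 promoters of genes that fell, none held CRE and 2 held AP-1. At such low shares these counts do not set the genes that rose apart. The longer motifs of NRF1, of ZNF143 and of YY1 were in 2, 1 and 1 promoters, against 1.96%, 0.391% and 1.42% in the table and 1.36%, 0.256% and 0.916% of all promoters.

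A run of 5 genes around ZNF226 (chr19:44025342-44401608) had higher summed values with METH. ZNF226 and ZNF227 rose, and ZNF222 (log2FC 0.57 ± 0.40 SE, limma adjusted p = 0.201), ZNF285 (log2FC 0.20 ± 0.35 SE, limma adjusted p = 0.601) and ZNF233 (log2FC -0.39 ± 0.34 SE, limma adjusted p = 0.292) did not pass the threshold. Their sum was 43.9, 49.7 and 33.1 CPM in the PBS libraries and 83.7, 74.2 and 70.5 CPM in the METH libraries, all METH sums above all PBS sums, and ZNF226 made up most of each sum. On chromosome 7, ZNF736, ZNF680, ZNF107, ZNF273, ZNF117 and ZNF92 (chr7:64307459-65401135) all had a negative log2FC, of which ZNF680, ZNF273 and ZNF92 fell, and their sum went from 26.1, 17.02 and 15 CPM to 10.4, 10.95 and 13.8 CPM. PBS 10 was the highest PBS library in all 6 genes of that run. ZNF595, ZNF732 and ZNF141 on chromosome 4 gave 66.8, 48.9 and 59.8 CPM with PBS and 35.7, 41.6 and 37.8 CPM with METH, with ZNF595 and ZNF732 lower. The 12 genes near the end of the long arm of chromosome 19 around ZNF582 were mixed, with 2 that rose (ZNF582 and ZNF460) and 5 that fell (ZNF551, ZNF552, ZNF772, ZNF587B and ZNF132). ZNF367 and ZNF782, which both fell, are neighbours on chromosome 9, and the 2 other genes of the table between them, HABP4 and AAED1, rose.

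**Figure D5:**
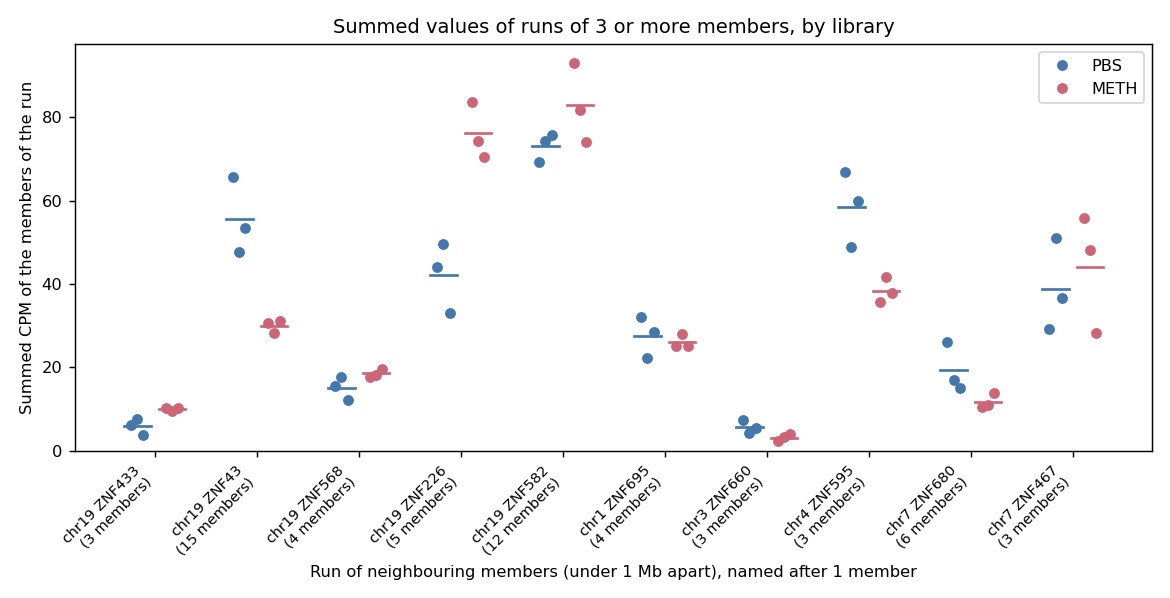
Summed CPM (vertical axis) of the members of each run of 3 or more neighbouring numbered ZNF genes, by library (points) and as group means (lines). The run around ZNF43 has PBS sums of 47.6 to 65.6 CPM and METH sums of 28.2 to 31.1 CPM, and the run around ZNF226 has PBS sums of 33.1 to 49.7 CPM and METH sums of 70.5 to 83.7 CPM.

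Of the 5 genes of highest mean CPM, ZNF226 and ZNF513 rose, ZNF595 fell, and ZNF358 and ZNF512 did not pass the threshold. ZNF358 had the highest level, also per length at 57.1 CPM per kb of exon, with 48.8, 134 and 110 CPM with PBS and 166, 149 and 101 CPM with METH. PBS 10 was far below and METH 3 below PBS 11 and PBS 12, so the groups overlapped (log2FC 0.59 ± 0.37 SE, limma adjusted p = 0.164). ZNF595, a KRAB gene with 17 fingers at 10.8 CPM per kb, had 55.8, 44.1 and 53.4 CPM with PBS and 32.1, 36.9 and 32.7 CPM with METH, all METH libraries lower (log2FC -0.59 ± 0.19 SE, limma adjusted p = 0.04301). ZNF512 had 47.3, 39.8 and 40.1 CPM with PBS and 31.9, 31.9 and 34.98 CPM with METH, also with all METH libraries lower, and did not pass the threshold (log2FC -0.36 ± 0.18 SE, limma adjusted p = 0.112).

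Of 75 ZNF genes listed for a known role, 13 were in the table, of which ZNF365 rose and 6 fell. These are 7.69% and 46.15% of the 13, beside 14.55% and 44.55% of the 110 genes and 33.3% and 35.8% of the table. ZNF326, a subunit of the DBIRD complex that acts at the border of transcription and splicing, had 10.8, 5.37 and 6.26 CPM with PBS and 3.06, 2.85 and 4.18 CPM with METH. No METH library reached a PBS library (log2FC -1.08 ± 0.32 SE, limma adjusted p = 0.0334). ZNF395, a nuclear-cytoplasmic factor studied in hypoxia, had 26.2, 48.9 and 28.9 CPM with PBS and 19.3, 20.8 and 18.7 CPM with METH, with PBS 11 highest and the METH libraries within a narrow range (log2FC -0.76 ± 0.26 SE, limma adjusted p = 0.0462). ZNF703 fell as given above. ZNF551 (log2FC -1.17 ± 0.39 SE, limma adjusted p = 0.0448), ZNF469, the gene of brittle cornea syndrome (log2FC -0.58 ± 0.27 SE, limma adjusted p = 0.09095), and ZNF512B (log2FC -0.47 ± 0.22 SE, limma adjusted p = 0.09497) fell as well, the last 2 by less than 2-fold and with calls that held in 1 and 2 of 6 leave-one-out fits.

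ZNF143, an activator of many promoters, had 7.14, 8.86 and 5.51 CPM with PBS and 9.57, 7.49 and 11.6 CPM with METH, with overlapping groups and no call (log2FC 0.41 ± 0.27 SE, limma adjusted p = 0.175). Its paralog ZNF76 fell (log2FC -0.75 ± 0.31 SE, limma adjusted p = 0.07303), with groups that overlapped between PBS 10 and METH 1. ZNF330, a nucleolar protein, and ZNF341, a regulator of STAT3 transcription, were higher in all METH libraries than in all PBS libraries without passing the threshold (log2FC 0.41 ± 0.20 SE, limma adjusted p = 0.1002 for ZNF330, and log2FC 0.56 ± 0.29 SE, limma adjusted p = 0.113 for ZNF341). ZNF638, which silences unintegrated retroviral DNA, ranged from 5.10 to 15.6 CPM with PBS, and its log2FC (-0.28 ± 0.37 SE, limma adjusted p = 0.488) was 0.14 without PBS 10. ZNF518A did not pass either (log2FC -0.81 ± 0.46 SE, limma adjusted p = 0.134).

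Some of the partners through which KRAB proteins act were in the table. Of a list of 48 genes of KAP1 and its partners, 12 were in the table. The table holds 4101 of the 15724 genes that its p-values imply, a similar share. KAP1 (TRIM28) and SETDB1, the histone methyltransferase it recruits, were not among the 12. None of the 12 rose and 9 fell by limma, with a median log2FC of -0.74, where 35.8% of all genes of the table fell. Without METH 2, 2 of the 12 fell, beside 13.7% of the table, and 2 fell when adjusted over 15724 genes, beside 7.49%. UHRF1, which guides maintenance methylation of DNA, had 39.03, 27.6 and 49.7 CPM in the PBS libraries and 14.01, 12.99 and 13.5 CPM in the METH libraries, widely apart (log2FC -1.48 ± 0.24 SE, limma adjusted p = 0.00825). DNMT1, the maintenance methyltransferase itself, had 64.1, 58.4 and 70.2 CPM with PBS and 42.2, 42.3 and 37.3 CPM with METH (log2FC -0.66 ± 0.19 SE, limma adjusted p = 0.0304). DNMT3B, HELLS, ATF7IP2, SUV39H1, CHD3, CBX5 and RIF1 also fell, with log2FC between -1.17 and -0.58, and RIF1 alone of these overlapped between the groups. SUV39H2, SMARCAD1 and MTA3 did not pass the threshold. No partner rose by edgeR or DESeq2 either.

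The 11 genes of the table named ZFP, ZBTB, ZSCAN, ZKSCAN or PRDM, the names most like those of the ZNF genes, had 4 that rose and 1 that fell, with a median log2FC of 0.62. These are 36.4% and 9.09% of the 11, beside 33.3% and 35.8% of all genes of the table. PRDM8, ZBTB4, ZBTB10 and ZSCAN21 rose and ZKSCAN7, a KRAB and SCAN gene, fell. ZFP36 among them encodes an RNA-binding protein with fingers of another type. The difference between these 11 genes and the 110 was not tested.

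Values of the libraries that bear on these counts were as follows. PBS 10, the deepest library, was the highest of all 6 in 50 of the 110 ZNF genes, and METH 1 was the lowest in 38. After centring of each gene on its PBS mean of log2 values, the median ZNF gene was at 0.18 in PBS 10, -0.09 in PBS 11, -0.14 in PBS 12 and between -0.60 and -0.34 in the METH libraries, against -0.07, 0.07, 0.02 and -0.02 to 0.15 for all genes. When all libraries were scaled to equal median ratios, limma left 15 genes that rose and 49 that fell. Among markers of neuroblastoma cells, GATA2, DDC and ELAVL4 fell, CHGB rose and MYCN did not pass the threshold. GATA2, a transcription factor of the sympathetic lineage, had a mean of 441 CPM with PBS and 270.2 CPM with METH. Of 12 mesenchymal markers 5 were in the table, where VIM, LUM and DCN rose, PDGFRA fell, TWIST1 did not pass, and the sum was 485 to 767 CPM with PBS and 833 to 1194 CPM with METH. Of 8 glial markers only ERBB3 was in the table, which rose from 0.342 to 0.653 CPM. The part of these markers and of the share of cell states in the ZNF changes was not tested.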

How the data were processed

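The authors sequenced RNA of SH-SY5Y cells on the HiSeq platform and compared METH with PBS by DESeq2. The aligner, the counting tool and the genome build are not given in the sources used here. The authors deposited 1 table with expression per library under headers of FPKM, but 99.9% to 100% of the values of each column were whole multiples of 1 step (CPM), so the deposited CPM values were used as such and reads were recovered from the steps. The deposited columns of fold change, p-value and adjusted p-value hold the authors' own comparison. Their p-values were read only to find that the genes of the table were filtered at 0.1 and that the adjustment implies 15724 genes. The means of the groups in the table were not used.

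The 6 libraries were grouped by their labels. limma 3.58.1 (R 4.3.3, eBayes with a trend) was fitted to log2(CPM + 0.1) of all 4101 genes, without covariates and with Benjamini-Hochberg adjustment at 0.1. This understates the change of low genes. Exact permutation tests of single genes with 3 against 3 libraries cannot go below p = 0.1, so none is quoted. Alternatives were pseudocounts of 1 and 0.01, a filter that kept means from 1 CPM upward, limma without its trend, equal median ratios of the libraries, 0.05 as threshold, adjustment over 15724 genes, edgeR 4.0.16 and DESeq2 1.42.0 on recovered reads, and each library left out. On simulated data of 4101 genes with 200 changed, limma recovered 196 and made 19 false calls, edgeR 196 and 16, and DESeq2 195 and 36. Unlike the deposited table, the simulated data had the same dispersion for every gene, few changed genes and no selection on the contrast. They do not give the error rate of the calls described here.

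The members, lists and runs were chosen with earlier results of these data known. Genes named were, in each direction, the 10 of largest log2FC among called genes that reached 1 CPM in the mean of either group and whose groups did not overlap, the 5 of highest mean, the 3 of smallest p, those listed for a role and those extreme in length or fingers. The other genes named as counted in a group or run, and ZNF488 and ZNF85, were chosen after their values were seen. Gene positions, translated proteins, fingers, KRAB boxes (a fixed pattern, and a pyhmmer 0.12.3 profile of 287 windows at an E-value of 0.001) and overlaps came from GENCODE release 29 (GRCh38), and promoters from RefSeq (GRCh38.p14). Some markers of neuroblastoma cells are not reported here.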

Additional observations from a re-analysis of the deposited data

How the results depend on the processing

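No paired analysis was possible because the columns of the PBS group carry the numbers 10 to 12 and those of the METH group 1 to 3, and no number is shared. With all libraries kept, the counts of ZNF genes that rose and fell moved by less than 1.5 times under the other pseudocounts, the filter, limma without a trend, the scaling, edgeR (16 and 49) and DESeq2 (19 and 51). At a threshold of 0.05, 9 rose and 23 fell, with 3 and 14 of the KRAB genes, 9 of the genes without a box falling, 4 and 9 of the genes of chromosome 19, and 0 falling among the other C2H2-named genes. The share of all genes at this threshold is not given here, so these counts stand without that comparison. Adjusted over 15724 genes by limma, 1 rose and 6 fell, with 0 and 3 of the KRAB genes, 1 and 3 of those without a box, 1 and 3 on chromosome 19, 2 KAP1 partners falling, and 1 and 0 of the other C2H2-named genes. A stricter adjustment leaves fewer calls by its construction. With the box found by the profile, chosen after seeing the data, 4 genes without a box rose. With the 5 pseudogenes counted, also chosen after seeing the data, 17 rose and 53 fell. The median log2FC was -0.38 with a pseudocount of 1.

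When 1 library was left out, 4 to 23 ZNF genes rose and 16 to 52 fell, and their median log2FC ran from -0.57 to -0.40. KRAB genes that rose numbered 1 to 8 and that fell 10 to 36, genes without a box 3 to 15 and 6 to 16, and genes of chromosome 19 2 to 11 and 6 to 22. KAP1 partners that fell numbered 2 to 10 and that rose 0 to 0, and the other C2H2-named genes 2 to 6 that rose and 0 to 2 that fell. The lowest counts of ZNF genes came without METH 2 (4 and 16), METH 1 (5 and 17) and PBS 12 (6 and 30), and the highest without PBS 11 (23 and 52). The cause was not tested. When 1 library was left out, log2FC changed sign in 4 of the 110 genes, none of which had passed the threshold. These were ZNF638, from -0.66 (without PBS 12) to 0.14 (without PBS 10), ZNF117, from -0.75 to 0.06, ZNF285, from -0.13 to 0.37, and ZNF641, from -0.08 to 0.29. Over the genes picked by the naming rule and all alternatives, 458 values kept their direction and side of the threshold, 101 lost the call, 8 gained it and 1 changed sign. Reads per gene limit the least abundant genes, such as ZNF723.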
